A study of Mus musculus with 6 samples.

Results

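The 10 genes described here include those of the PGC-1 coactivators (Ppargc1a, Ppargc1b and Pprc1) and of a muscle regulator that PGC-1 induces (Perm1). Others encode the transcription factors NRF-1 and GABPα (Nrf1 and Gabpa) and the receptors PPARα and PPARδ (Ppara and Ppard). The remaining pair, Pdk4 and Ucp3, are genes that PPARs are known to induce in muscle. All were named by symbol for their place in this pathway, with earlier results of these data known. They are 10 of the 48795 genes in the count table. All 10 had enough reads in the libraries to be tested, among 13628 genes tested in all. The measurements are RNA-seq read counts from quadriceps, the large thigh muscle, of male C57BL/6 mice aged 20 weeks. The 3 MERKO libraries come from mice with a muscle-specific knockout of the estrogen receptor ERα (gene Esr1), and the 3 control libraries from wild-type mice. The sources used here do not give the allele or the promoter behind the deletion, or the feeding state at tissue collection. They do not say whether each library is a separate mouse, so the tests measure only how these libraries vary, which may be technical.

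PGC-1 proteins do not bind DNA themselves. They dock on transcription factors such as PPARs, estrogen-related receptors and NRF-1 and recruit the machinery that opens chromatin and starts transcription. PPARα and PPARδ sense fatty acids and, as dimers with retinoid X receptors, switch on genes of fat oxidation, while NRF-1 and GABP act on genes of the respiratory chain and of mitochondrial gene expression. In skeletal muscle this network is known for its response to exercise and fasting and for its higher activity in oxidative fibres.

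The libraries held between 14935532 and 44282448 counts. Levels are in CPM, reads of a gene relative to the reads of all tested genes in the library, with TMM factors for library composition. Esr1 checked the labels. It stood at 6.75, 9.43 and 7.46 CPM in MERKO 1 to 3, against 25.1, 34.1 and 31.1 CPM in control 1 to 3. It was the 1 gene of the whole table that passed the edgeR test at an adjusted p of 0.05 (log2 fold change -1.95, adjusted p = 0.0262), and it lost that call, at values from -2.08 to -1.84, when MERKO 1, MERKO 2, control 2 or control 3 was left out. A single rRNA gene model took 6.19%, 32.4% and 19.2% of counts in MERKO 1 to 3, against 11.1%, 27.7% and 0.0433% in control 1 to 3. With that model and the genes of mitochondrial DNA left out, the log2 fold changes of the 10 genes kept a median of 0.17, with 9 above 0. Libraries of the same group were unlike in slow-fibre transcripts. The summed level of 12 slow-fibre genes was 715, 65.5 and 86.1 CPM in MERKO 1 to 3, and 684, 73.5 and 75.3 CPM in control 1 to 3, so that 1 library of each group stood apart. Defining genes of skeletal muscle were abundant in every library, with Ckm, the muscle creatine kinase, at 13937 CPM or more. In whole tissue, fewer cells of a type and less RNA per cell cannot be told apart.

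Per length of transcript, the targets Pdk4 and Ucp3 and the regulator gene Perm1 stood far above the other 7 genes. Levels here are RPKM, that is CPM per kilobase of annotated exon, given as mean ± SD over all 6 libraries. Pdk4 had the highest level at 203 ± 92.7 RPKM, followed by Ucp3 at 67.1 ± 15.2 and Perm1 at 39.6 ± 18.8 RPKM. The ranges of Ucp3 and Perm1 overlapped, whereas every library had more Pdk4 than any had Ucp3. Gabpa came next at 5.89 ± 0.62 RPKM, apart in every library from Perm1 above it and Ppargc1a below it, although the highest library of Ppara reached 5.90 RPKM. Ppargc1a at 3.16 ± 0.58, Ppara at 2.96 ± 2.11 and Ppargc1b at 1.70 ± 0.59 RPKM overlapped, each with the next, as did Nrf1 at 1.10 ± 0.11, Pprc1 at 0.888 ± 0.084 and Ppard at 0.617 ± 0.101 RPKM. The mean of Pdk4 was thus 328 times that of Ppard. With the length of the longest transcript in place of all exons, Nrf1 stood at 2.79 and Ppard at 1.24 RPKM, which put Nrf1 above Ppargc1b, Ppara above Ppargc1a, and Ppard above Pprc1.

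Among the coactivators, the question was whether the loss of ERα in muscle went with a change in their transcripts. Ppargc1a (ENSMUSG00000029167.13, GRCm38 chromosome 5, 51454250 to 51567726, minus strand), which encodes PGC-1α, stood at 26.1, 17.9 and 20.1 CPM in MERKO 1 to 3, against 24.9, 19.4 and 16.7 CPM in control 1 to 3. The groups overlapped almost fully, and the highest library of each was number 1. Its MERKO mean was 21.4 ± 4.22 CPM and its control mean 20.3 ± 4.16 CPM (SD, 3 libraries each). By edgeR's quasi-likelihood test the log2 fold change was 0.08 (95% interval -0.34 to 0.51, adjusted p = 0.932). This interval spans folds from 0.790 to 1.42, so a larger change in either direction lies outside it. The counts sum all exons of a gene, and the promoter variants of Ppargc1a are not resolved in them.

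Ppargc1b (ENSMUSG00000033871.14), which encodes the related coactivator PGC-1β, stood at 10.9, 5.47 and 7.41 CPM in MERKO 1 to 3, against 5.84, 7.18 and 3.95 CPM in control 1 to 3. MERKO 1 was the highest library and control 3 the lowest, and the rest were interleaved. The log2 fold change was 0.55 (95% interval -0.11 to 1.21, adjusted p = 0.713, edgeR), the largest of the 10 genes in the fit of all libraries, and it was 0.24 without MERKO 1 and 0.32 without control 3. Pprc1 (ENSMUSG00000055491.13, chromosome 19, 46044886 to 46072915, plus strand), which encodes PRC, a growth-regulated relative of PGC-1α, stood at 5.29, 4.71 and 6.06 CPM in MERKO 1 to 3, against 5.46, 6.00 and 5.94 CPM in control 1 to 3. Its libraries lay within 1.29-fold of each other, the narrowest range of the 10 genes. The log2 fold change was -0.11 (-0.44 to 0.22, adjusted p = 0.881, edgeR), the lone negative value among the 10. It was -0.026 without MERKO 2 and -0.20 without MERKO 3.

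Perm1 (ENSMUSG00000078486.3, chromosome 4, 156215868 to 156221307, plus strand) encodes a muscle protein that is induced by PGC-1 and estrogen-related receptors and acts on oxidative genes. It stood at 268, 95.4 and 153 CPM in MERKO 1 to 3, against 215, 114 and 82.5 CPM in control 1 to 3. Library 1 of each group was well above the rest of its group. The MERKO mean of 172 ± 88.1 CPM and the control mean of 137 ± 68.9 CPM (SD, 3 libraries each) differed by less than the spread within either group (log2 fold change 0.33, -0.64 to 1.31, adjusted p = 0.872, edgeR). Without MERKO 1 the log2 fold change was -0.14.

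The DNA-binding partners NRF-1 and GABPα had among the steadiest transcripts. Nrf1 (ENSMUSG00000058440.14, chromosome 6, 30047988 to 30153458, plus strand), the gene of nuclear respiratory factor 1, stood at 12.9, 11.0 and 11.6 CPM in MERKO 1 to 3, against 11.8, 9.39 and 11.1 CPM in control 1 to 3. Gabpa (ENSMUSG00000008976.16, chromosome 16, 84834925 to 84863779, plus strand), the DNA-binding subunit of GABP, stood at 40.2, 30.7 and 32.6 CPM in MERKO 1 to 3, against 34.4, 31.3 and 31.6 CPM in control 1 to 3. The groups overlapped in both genes, and MERKO 1 was the highest library in both. The log2 fold change was 0.14 for Nrf1 (-0.15 to 0.43, adjusted p = 0.823) and 0.09 for Gabpa (-0.18 to 0.36, adjusted p = 0.873, edgeR for both). With single libraries left out, the value of Nrf1 lay between 0.063 and 0.20 and that of Gabpa between -0.035 and 0.17. For Nrf1 and Gabpa the intervals reach folds of 1.34 and 1.29 at most. Of the exon bases of Gabpa, 397 of 5687 overlap the antisense gene Atp5j, and 177 of 6284 of Pprc1 overlap the antisense gene Ldb1. Whether the counting used strand is not given in the sources used here, so reads from those stretches cannot be assigned.

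The PPAR receptor genes had unlike patterns over the libraries. Ppara (ENSMUSG00000022383.13, chromosome 15, 85734983 to 85802819, plus strand) stood at 22.6, 5.30 and 7.94 CPM in MERKO 1 to 3, against 20.8, 6.87 and 4.63 CPM in control 1 to 3. Library 1 of each group stood far above the rest of its group, and the range over all libraries was 4.88-fold, the widest of the 10 genes. Ppard (ENSMUSG00000002250.15, chromosome 17, 28232700 to 28301474, plus strand) stood at 3.65, 5.81 and 4.91 CPM in MERKO 1 to 3, against 4.33, 4.97 and 4.15 CPM in control 1 to 3. MERKO 1, the highest library for Ppara, was the lowest for Ppard, and MERKO 2 was the highest. The log2 fold change was 0.20 for Ppara (-1.28 to 1.68, adjusted p = 0.956) and 0.08 for Ppard (-0.37 to 0.54, adjusted p = 0.939, edgeR for both). The fold change of Ppara was set by single libraries: it was -0.67 without MERKO 1 and 1.14 without control 1. Leaving out control 3 gave -0.20, and leaving out control 2 gave -0.016. Per length, the ratio of Ppara over Ppard was 12.1, 1.79 and 3.17 in MERKO 1 to 3, against 9.39, 2.71 and 2.18 in control 1 to 3. The difference in this ratio between the groups was smaller than the spread within them (exact two-sided permutation p = 0.9 on log2 ratios, where 3 against 3 libraries allow no p below 0.1).

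The targets had their high libraries in common with Ppara. Pdk4 (ENSMUSG00000019577.6, chromosome 6, 5483351 to 5496309, minus strand), a kinase that inhibits pyruvate dehydrogenase and so spares glucose, stood at 1223, 395 and 777 CPM in MERKO 1 to 3, against 930.2, 499 and 446 CPM in control 1 to 3. MERKO 1 and control 1 were the highest libraries and MERKO 2 the lowest, so the MERKO group spanned the whole range. Ucp3 (ENSMUSG00000032942.14, chromosome 7, 100472990 to 100486432, plus strand), a mitochondrial carrier protein of muscle that rises with fatty acid supply, stood at 255, 175 and 246 CPM in MERKO 1 to 3, against 260 CPM, 168 CPM and 159 CPM in control 1 to 3. Here MERKO 1, MERKO 3 and control 1 were high and the other 3 libraries low, so the groups overlapped. The log2 fold change was 0.35 for Pdk4 (-0.60 to 1.30, adjusted p = 0.862) and 0.21 for Ucp3 (-0.29 to 0.70, adjusted p = 0.849, edgeR for both). Without MERKO 1 it was -0.09 for Pdk4 and 0.11 for Ucp3, and without control 1 it was 0.76 for Pdk4 and 0.46 for Ucp3.

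**Figure D1:**
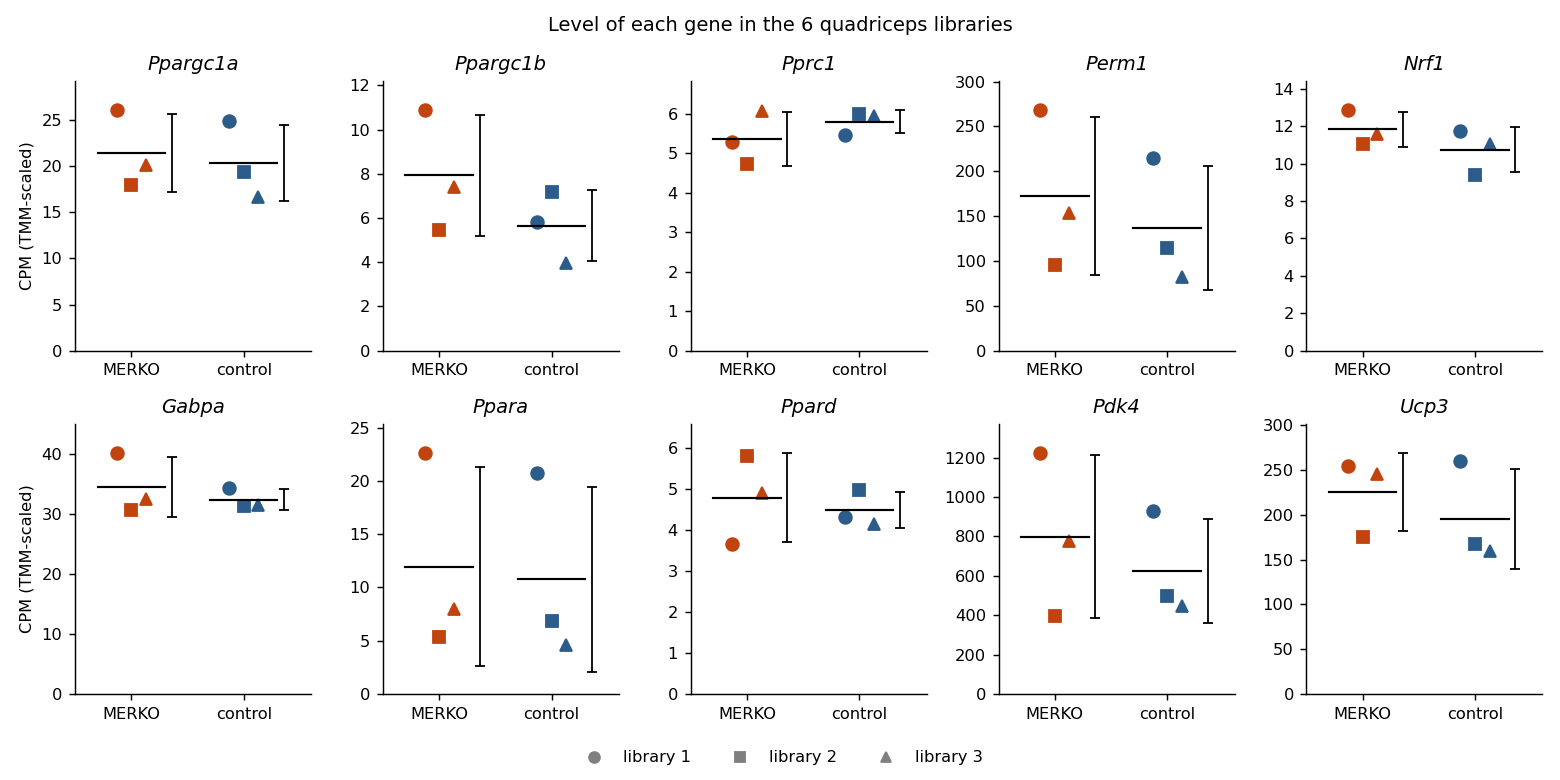
Level of each of the 10 genes in CPM (vertical axis, from 0) in MERKO and control quadriceps. Symbols mark libraries 1 to 3, horizontal lines the group means and brackets the SD (n = 3 each). The groups overlap in all 10 panels, and library 1 of each group (circle) is the highest of its group for Ppargc1a, Perm1, Nrf1, Gabpa, Ppara, Pdk4 and Ucp3.

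Over the 10 genes, 0 were called between MERKO and control, against 0.00734% of all genes tested (1 gene, Esr1, which was lower), and the lowest adjusted p was 0.713 for Ppargc1b (edgeR). At an unadjusted p under 0.05 in this edgeR fit the count was also 0 of 10, with 7.04% of all genes tested below it. At an adjusted p of 0.05, DESeq2 and limma-voom called 0 of the 10 as well. The unadjusted p of Ppargc1b was 0.0294 in limma-voom and 0.0924 in DESeq2. In edgeR it was 0.0165 with no filter and 0.0309 without MERKO 2. That of Ucp3 was 0.0326 without control 1 (edgeR). The groups overlapped in each of the 10, while 13.3% of all genes had groups that did not overlap (6.17% with MERKO higher and 7.10% with MERKO lower). The log2 fold change was above 0 in 9 of the 10, against 52.1% of all genes, and below 0 in 1 of the 10, against 47.9% of all genes. The median was 0.17 (0.01 over all genes). Without MERKO 1 the log2 fold change was above 0 in 4 of the 10, with a median of -0.06. Leaving out any other single library left 7 to 9 of the 10 above 0. Without MERKO 1 and control 1 together, 9 of the 10 were above 0, with a median of 0.27. A p above the threshold does not show that levels were equal, and the intervals of Ppara, Perm1, Pdk4 and Ppargc1b include a doubling.

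**Figure D2:**
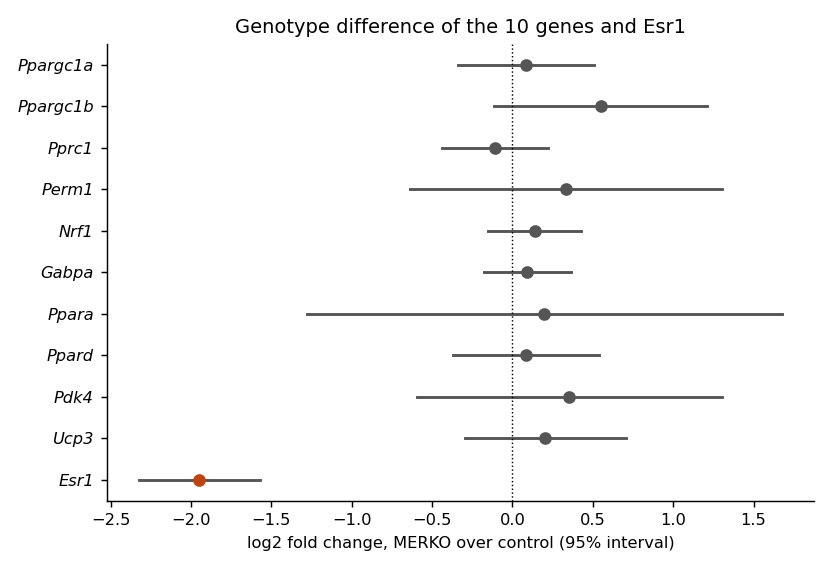
Log2 fold change of MERKO over control (horizontal axis) with its 95% interval for the 10 genes and Esr1, from the edgeR fit across all genes. The 10 intervals include 0, and Esr1 at -1.95 is the point past the adjusted p of 0.05 (coloured).

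The variation of these genes, like that of the median gene tested, lay mainly between libraries of the same genotype. Of the variation of log2 CPM over the 6 libraries, the share between genotypes was 0.949% for Ppara, 2.49% for Ppargc1a, 5.81% for Pdk4 and 6.77% for Perm1, and the median share of all genes tested was 15.6%. Ppard (2.94%), Gabpa (9.24%) and Ucp3 (13.3%) also lay below that median. Above it were Ppargc1b at 27.5%, the highest among the 10, Nrf1 at 27.2% and Pprc1 at 22.1%. Ranked by the SD within groups, Ppara stood at percentile 98.8 of all genes tested, Perm1 at 95.7 and Pdk4 at 95.3. Pprc1 at percentile 28.7, Nrf1 at 30.7 and Gabpa at 34.6 were steadier than most genes. The coactivator gene Ppargc1b came next at 85.3, and Ucp3, Ppargc1a and Ppard stood at 75.0, 66.2 and 61.3.

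In 7 of the 10 genes (Ppargc1a, Perm1, Nrf1, Gabpa, Ppara, Pdk4 and Ucp3), the 2 highest of the 6 libraries were MERKO 1 and control 1. Among all genes tested this was so for 13.2%. This pair of libraries was singled out after the values were seen, as the pair with high slow-fibre transcripts, and all 12 slow-fibre genes had it on top by that choice. Myh7, which encodes a myosin of slow fibres, had 160 CPM in MERKO 1, 185 CPM in control 1 and 8.07 CPM or less elsewhere. Ppargc1b, Pprc1 and Ppard did not have the pair on top. Control 3 was the lowest library for 5 of the 10 genes (Ppargc1a, Ppargc1b, Perm1, Ppara and Ucp3), against 16.4% of all genes tested. Whether fibre composition had a part in these levels was not tested. With MERKO 1 and control 1 left out together, the log2 fold change was 0.29 for Ppara, 0.35 for Perm1, 0.31 for Pdk4 and 0.37 for Ucp3, and 0 of the 10 genes were called.

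**Figure D3:**
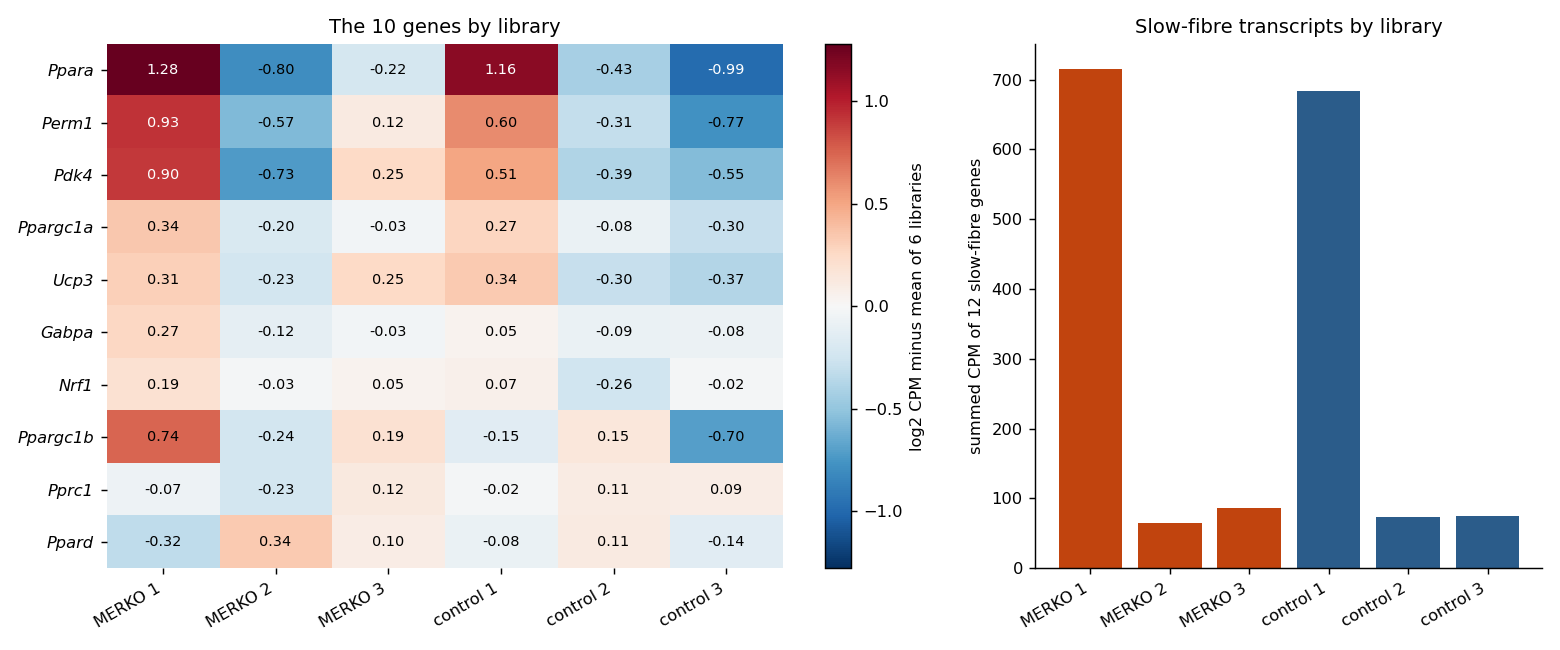
Left, log2 CPM of the 10 genes by library, after subtracting the mean over all 6 (colour scale and printed values). Right, summed CPM of the 12 slow-fibre genes (bars from 0). MERKO 1 and control 1 are high in the right panel and, for the upper 7 genes, in the left, with Ppara at 1.28 and 1.16. Among the lower 3, Ppargc1b is above its mean in MERKO 1 and below it in control 1, and Pprc1 and Ppard are below their means in both.

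The genes whose profile over the 6 libraries lay nearest to a member were found among 10708 tested genes with an average log2 CPM of at least 1, by the root mean square difference in log2 CPM after centring. For Ppargc1a these were Hspa9 (0.025), a chaperone of the mitochondrial matrix, Sod2 (0.033), the mitochondrial superoxide dismutase, and Cs (0.034), the citrate synthase of the tricarboxylic acid cycle. The median difference over all candidates was 0.29. Cs, for example, stood at 570.4, 406 and 467 CPM in MERKO 1 to 3, against 539, 439 and 367 CPM in control 1 to 3, an order of libraries like that of Ppargc1a. For Pdk4 the nearest were Vopp1 (0.10), Plbd1 (0.11) and Zfp827 (0.13), with a median of 0.62. For Ucp3 they included Dus4l (0.065) and Iba57 (0.075), a mitochondrial iron-sulfur protein factor, with a median of 0.35. These differences describe likeness over 6 libraries and carry no test.

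Promoter windows are shown for Ppara, Perm1, Pdk4 and Ucp3, a receptor, a regulator and the targets whose 2 highest libraries were MERKO 1 and control 1, and for Ppard, the receptor gene for which they were not. Each is the RefSeq window of 300 bases (250 before the start of transcription and 50 from it) on GRCm38.p6, read 5′ to 3′ on the strand of the gene. The positions are chr15:85735526-85735825 (plus strand) for Ppara, chr17:28232504-28232803 (plus) for Ppard, chr4:156215677-156215976 (plus) for Perm1, chr6:5496229-5496528 (minus) for Pdk4 and chr7:100472741-100473040 (plus) for Ucp3. Capitals mark the motif matches named after the sequences.
Ppara: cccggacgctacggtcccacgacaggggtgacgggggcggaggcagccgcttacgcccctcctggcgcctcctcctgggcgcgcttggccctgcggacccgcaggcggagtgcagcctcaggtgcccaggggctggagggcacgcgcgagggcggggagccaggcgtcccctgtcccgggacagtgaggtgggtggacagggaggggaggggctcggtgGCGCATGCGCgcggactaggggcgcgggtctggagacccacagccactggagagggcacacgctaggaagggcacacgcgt
Ppard: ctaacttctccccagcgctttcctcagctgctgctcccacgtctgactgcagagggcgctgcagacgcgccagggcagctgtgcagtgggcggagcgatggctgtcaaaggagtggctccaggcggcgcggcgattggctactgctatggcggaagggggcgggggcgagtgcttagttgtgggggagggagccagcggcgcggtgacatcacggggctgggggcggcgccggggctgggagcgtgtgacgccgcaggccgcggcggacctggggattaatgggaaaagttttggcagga
Perm1: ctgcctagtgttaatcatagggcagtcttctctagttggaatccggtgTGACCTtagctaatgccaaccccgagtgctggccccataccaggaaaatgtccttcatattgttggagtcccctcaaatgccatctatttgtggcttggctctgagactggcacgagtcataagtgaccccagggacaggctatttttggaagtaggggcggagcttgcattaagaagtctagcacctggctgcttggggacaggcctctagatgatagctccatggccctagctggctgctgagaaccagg
Pdk4: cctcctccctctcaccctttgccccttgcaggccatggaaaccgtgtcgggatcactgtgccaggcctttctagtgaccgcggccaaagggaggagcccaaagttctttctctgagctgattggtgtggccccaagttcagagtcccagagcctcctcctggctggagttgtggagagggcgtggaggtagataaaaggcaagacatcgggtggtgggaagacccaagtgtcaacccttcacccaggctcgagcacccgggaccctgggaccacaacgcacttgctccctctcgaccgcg
Ucp3: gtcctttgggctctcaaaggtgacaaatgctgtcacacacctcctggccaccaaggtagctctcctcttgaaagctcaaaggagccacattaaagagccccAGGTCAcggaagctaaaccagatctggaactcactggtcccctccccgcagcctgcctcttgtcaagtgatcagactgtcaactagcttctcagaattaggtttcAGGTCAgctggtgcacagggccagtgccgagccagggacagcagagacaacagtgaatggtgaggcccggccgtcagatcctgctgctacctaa

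The windows were searched on both strands for 7 motifs: the nuclear receptor core AGGTCA, the estrogen-related receptor element TNAAGGTCA, the PPAR element (AGGTCA, any 1 base, AGGTCA), the estrogen element (GGTCA, any 3 bases, TGACC), the NRF-1 motif (GCGCA, any 1 base, GCGC), the GABP motif CCGGAAG and the cyclic AMP element TGACGTCA. The longer receptor motifs contain the core or its last bases, so their matches can overlap. Ucp3 held the core at -149 and -44 from the start of transcription, and Perm1 held it at -202 on the other strand. Of 32851 mouse promoter windows, 16.3% hold that core. Ppara held a palindromic NRF-1 match at -31, a motif found in 4.60% of windows, while the windows of Pdk4 and Ppard held none of the 7. Of the windows not printed, that of Pprc1 held the core at -113 and that of Gabpa held the GABP motif, found in 8.86% of windows, at -93. The window of Ppargc1a and both windows of Nrf1 held none of the 7, and that of Ppargc1b was not used here. The full PPAR element is in 0.0396% and the estrogen element in 0.0700% of windows, and no member window searched held either. The windows differed in base content, at 74.7% GC in Ppara and 68.3% in Ppard, against 60.7% in Pdk4, 55.0% in Ucp3 and 52.3% in Perm1 (median of all windows 52.7%). A match is a run of letters, not a shown binding site, and these short windows leave out distant enhancers.

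The wider pathway was described with lists of reported partners and targets. Of 10 receptors and partners tested, 0 were called, with 6 log2 fold changes above 0 and 4 below (median 0.06). The split turned to 4 above and 6 below both without MERKO 1 (median -0.048) and with no composition factor (median -0.052). Rxrg, a retinoid X receptor gene active in muscle, stood at 31.9, 40.7 and 46.2 CPM in MERKO 1 to 3, against 45.0, 50.8 and 54.6 CPM in control 1 to 3 (log2 fold change -0.34, -0.68 to -0.01, adjusted p = 0.694, edgeR). Its MERKO libraries were lower on the whole, with MERKO 3 inside the control range. Rxra, a second partner of PPARs, had a log2 fold change of -0.14, and Gabpb1, a subunit that joins GABPα, of 0.23. The estrogen-related receptor genes Esrra, Esrrb and Esrrg, which PGC-1 proteins co-activate, each had MERKO 1 and control 1 as the highest libraries. Esrrg stood at 17.8, 2.78 and 6.74 CPM in MERKO 1 to 3, against 11.2, 3.71 and 2.06 CPM in control 1 to 3.

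Of 22 co-activators and co-repressors, 0 were called, with 12 log2 fold changes above 0 and 10 below (median 0.03). The split was 16 above and 6 below without MERKO 1 (median 0.11), 10 above and 12 below without MERKO 3 (median -0.017), and 6 above and 16 below with no composition factor (median -0.09). MERKO 1 was the lowest library for 13 of the 22 (59.1%, against 21.7% of all genes). Ncoa2, a p160 co-activator of nuclear receptors, stood at 23.0, 25.9 and 26.3 CPM in MERKO 1 to 3, against 19.3, 21.9 and 21.6 CPM in control 1 to 3. Every MERKO library lay above every control library, by a log2 fold change of 0.26 (0.03 to 0.49, adjusted p = 0.683, edgeR). Its relative Ncoa3 (0.26, -0.02 to 0.54) and Helz2, a co-activator of PPARs (0.28, -0.02 to 0.58), also did not overlap between groups. Such separation was found in 4 of the 22 genes (18.2%), against 13.3% of all genes. MERKO was higher in 3 of these genes and lower in 1. The pair MERKO 1 and control 1 was on top in 0 of these 22. Of 35 kinases and factors tested that act on Ppargc1a or its protein, 0 were called, with 18 values above 0 and 17 below (median 0.01). The split was 23 above and 12 below without MERKO 1, 14 above and 21 below without MERKO 3, and 7 above and 28 below with no composition factor. It was 17 above and 18 below when MERKO 2 was left out, 16 above and 19 below when control 1 was, and 22 above and 13 below when control 3 was. The lowest p belonged to Mapk11, the p38β kinase (log2 fold change 0.61, -0.02 to 1.25), Hdac4 (0.21, -0.04 to 0.46) and Hdac7 (0.21, -0.07 to 0.48), the last being deacetylases that restrain MEF2 factors.

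Of 34 tested PPAR targets other than Pdk4 and Ucp3, 0 were called, with 28 log2 fold changes above 0 and 6 below and a median of 0.29 (0.01 over all genes). The direction of this list changed without MERKO 1 alone, with 11 of the 34 above 0 and 23 below and a median of -0.10. Without MERKO 1 and control 1 together, 25 were above 0 and 8 below, with a median of 0.21. The median was 0.11 without control 3, 0.48 without MERKO 2 and 0.55 without control 1. MERKO 1 was the highest library for 26 of the 34 (76.5%, against 21.1% of all genes). MERKO 1 and control 1 were the top pair in 25 of the 34 (73.5%, against 13.2% of all genes). Plin2, a lipid droplet coat protein, was an exception, at 24.6, 20.8 and 26.7 CPM in MERKO 1 to 3, against 18.4, 19.9 and 17.6 CPM in control 1 to 3. Its groups did not overlap, with a log2 fold change of 0.37 (0.11 to 0.64, adjusted p = 0.665, edgeR). Cpt1a, which admits fatty acids to mitochondria, also did not overlap (0.28, 0.02 to 0.54), and neither did Txnip, a glucose-responsive inhibitor of glucose uptake, which was lower (-0.23, -0.52 to 0.05). These 3 are all the genes of the list whose groups did not overlap, a share of 8.82% against 13.3% of all genes. Cpt1b, the muscle form of that enzyme, averaged 1.55 CPM over MERKO libraries and 1.14 CPM over control libraries. In GENCODE M21, 2744 of its 3372 exon bases overlap the gene model Gm44502 on the same strand. That model is not among the genes of the deposited counts, and the annotation used for counting is not given. Whether the overlap left the counts of Cpt1b incomplete is therefore not known. Without Cpt1b, 27 of 33 targets were above 0 with a median of 0.28, and the top pair was MERKO 1 and control 1 in 24 of the 33. Beside this list, adipocyte markers had a summed level of 421 to 974 CPM in MERKO and 1132 to 1832 CPM in control. Car3, a carbonic anhydrase also present in muscle fibres, made up most of that sum. Without it the sum was 157, 136 and 175 CPM in MERKO 1 to 3, against 179.8, 595 and 259 CPM in control 1 to 3, so that control 1 lay close to the MERKO libraries. The tendon markers summed to 138 to 667 CPM over MERKO libraries and 54.8 to 144 CPM over control libraries. No marker of either list was at 0 in all libraries, although Ucp1, Adrb3 and Cidea were too low to be tested, and the part of these tissues in the levels was not tested.

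Of 30 reported NRF-1 and GABP targets, 0 were called, with 19 log2 fold changes above 0 and 11 below and a median of 0.03. With no composition factor, a scaling that moved the median of all genes to -0.10, 8 of the 30 were above 0 and 22 below. The split was 3 above and 27 below both without MERKO 1 and without control 3, and 10 above and 20 below without control 2. Cox4i1, a subunit of cytochrome c oxidase, averaged 326 ± 93.3 CPM over MERKO libraries and 329 ± 89.5 CPM over control libraries (SD, 3 each). The lowest p belonged to Ssbp1 (-0.17, -0.43 to 0.09) and Polg2 (-0.37, -0.96 to 0.22), which act in copying mitochondrial DNA, and to the import gene Timm8a1 (0.46, -0.49 to 1.41). The top pair was MERKO 1 and control 1 in 21 of the 30. Of 17 genes reported to respond to PGC-1α, among them Esrra, which is also in the receptor list, 0 were called. Of these 17, 14 were above 0 and 3 below, with a median of 0.26. MERKO 1 and control 1 were the top pair in 15 of the 17 (88.2%, against 13.2% of all genes). Without MERKO 1 there were 5 above 0 and 12 below. Without MERKO 1 and control 1 together, 14 of 16 genes were above 0 and 2 below, with a median of 0.23. The list median was 0.07 without control 2 or control 3, 0.42 without MERKO 2 and 0.53 without control 1. Spp1, a secreted matrix phosphoprotein, stood at 1.89, 0.589 and 3.27 CPM in MERKO 1 to 3, against 0.714, 0.552 and 0.184 CPM in control 1 to 3 (log2 fold change 2.18, 0.64 to 3.72, adjusted p = 0.654, edgeR). Its level was low and MERKO 2 lay inside the control range. The hormone-like factor gene Metrnl (0.52, -0.03 to 1.08) and the myokine gene Il15 (0.49, -0.52 to 1.50) came next by p.

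A list of genes that FoxO factors or glucocorticoids are known to induce in muscle was added because both also act on Pdk4. Like the other lists, it was chosen with earlier results of these data known, so its direction is a description and not a test. All 20 tested genes of this list had log2 fold changes below 0 (47.9% of all genes were), with a median of -0.21, and 0 were called in the edgeR test, with 4 at an unadjusted p under 0.05. Fkbp5, which encodes a chaperone partner of steroid receptors, had 67.9, 41.8 and 56.4 CPM in MERKO 1 to 3, against 112, 96.9 and 105 CPM in control 1 to 3 (log2 fold change -0.92, -1.30 to -0.53, adjusted p = 0.631, edgeR, and adjusted p = 0.000635 in DESeq2). Sgk1, a kinase induced by glucocorticoids (-0.38, -0.65 to -0.11), and Trim63, the muscle ubiquitin ligase MuRF1 (-0.80, -1.41 to -0.20), followed by p. Fkbp5 and Sgk1 did not overlap between groups, and Trim63 did. The groups did not overlap in 3 of the 20 genes (15.0%, against 13.3% of all genes), and the number below 0 was 15 of 20 without MERKO 2 (median -0.10) and 16 of 20 without control 3 (median -0.11). Without MERKO 1, 17 of the 20 were below 0 (median -0.30). Pdk4 lay above 0 with all libraries, at 0.35, and below 0 without MERKO 1, at -0.0920. Its highest library was MERKO 1, whereas 13 of the 20 listed genes were highest in control 1 or control 3. Of all genes tested, 12.6% were highest in control 1 and 18.1% in control 3.

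**Figure D4:**
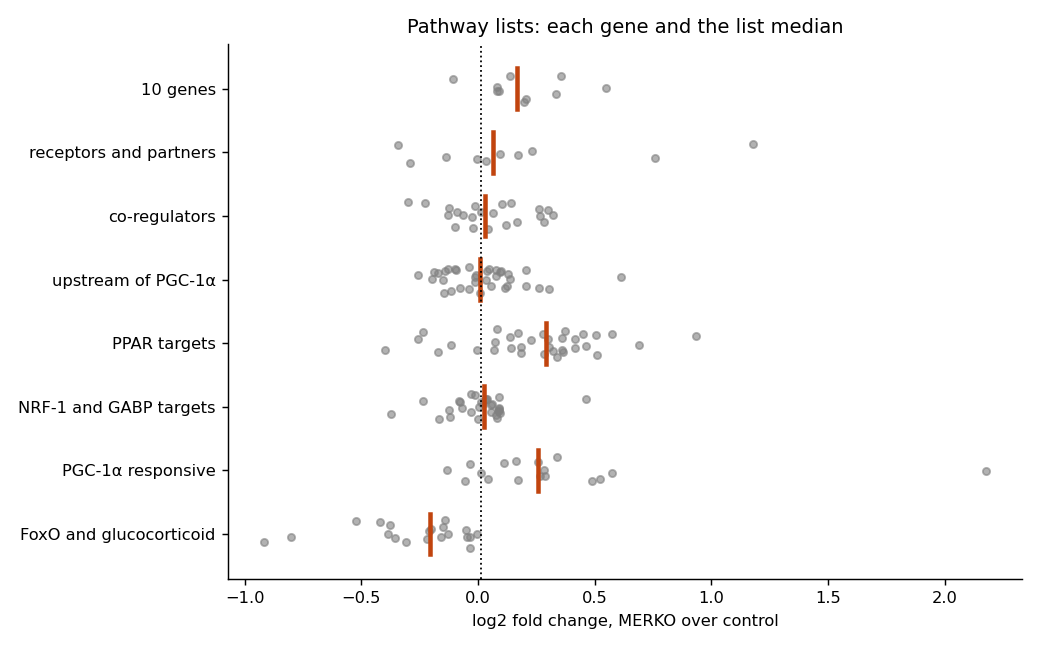
Log2 fold change of MERKO over control (horizontal axis) for each tested gene (points) of the 10 genes and 7 pathway lists, with list medians (coloured bars) and the median of all genes (dotted line). The PPAR target list has its median at 0.29 and the FoxO and glucocorticoid list at -0.21, and no point is past the adjusted p of 0.05.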

How the data were processed

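RNA-seq libraries of quadriceps, 3 from MERKO and 3 from control mice, were analysed, with the number of animals not stated. The authors deposited raw read counts per gene, whole numbers with 48795 Ensembl identifiers. HTSeq 0.9.1, STAR 2.5.2b and DESeq are listed, with no role, in the submitters' processing notes, as are the builds mm10 and GRCm38. The sources used here do not give the annotation release, how multiply placed reads were handled, or whether strand was used. Labels tell the libraries apart by genotype and number and do not say that each is a separate animal, so p-values measure the spread between libraries.

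Groups came from sample titles. Positions and exon lengths are from GENCODE M21 (GRCm38). Genes kept by filterByExpr (13628) were tested with edgeR 4.0.16 quasi-likelihood in R 4.3.3. The model had TMM scaling, a term for genotype alone and Benjamini-Hochberg adjustment over all genes tested at 0.05. The code was tested on simulated data. Fold changes are log2 of MERKO over control, and log2 CPM used a prior count of 2. Alternatives were DESeq2 1.42.0 without filterByExpr, limma-voom (limma 3.58.1), other scalings and filters, a robust prior, replicate number as a block, a threshold of 0.1 and leaving out libraries. Members and lists were chosen with earlier results of these data known. Beside the members and Esr1, the text names the 3 lowest-p genes of each pathway list and the nearest profiles, of which 1 is not reported here; Esrrg, Cox4i1, Cpt1b and Myh7, the ratio of Ppara over Ppard and the pairing of MERKO 1 with control 1 were chosen after their values were seen. Sums and counts without Car3 or Cpt1b were added after seeing the data. Intervals cover the spread between libraries, and libraries of fewer counts are less precise.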

Additional observations from a re-analysis of the deposited data

How the results depend on the processing

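The 10 genes had 170 log2 fold changes under 17 alternatives, of which 0 passed the threshold and 10 changed sign. Without MERKO 1 the value was -0.0897 for Ppargc1a, -0.14 for Perm1, -0.035 for Gabpa, -0.67 for Ppara and -0.0920 for Pdk4. Without control 3 it was -0.049 for Ppargc1a and -0.20 for Ppara, and without control 2 it was -0.016 for Ppara. For Ppard it was -0.0618 with no composition factor and -0.058 without MERKO 2. The range over single libraries left out was -0.0897 to 0.26 for Ppargc1a, 0.24 to 0.74 for Ppargc1b, -0.20 to -0.026 for Pprc1, -0.14 to 0.81 for Perm1, 0.063 to 0.20 for Nrf1, -0.035 to 0.17 for Gabpa, -0.67 to 1.14 for Ppara, -0.058 to 0.26 for Ppard -0.0920 to 0.76 for Pdk4 and 0.075 to 0.46 for Ucp3. The cause of these changes was not tested.

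Esr1 stayed between -2.08 and -1.84 with any library left out, but lost the threshold without MERKO 1, MERKO 2, control 2 or control 3. It also lost the threshold, at -1.98, without MERKO 2 and control 2 together. Without MERKO 1 and control 1 together it kept the threshold, at -1.96 (adjusted p = 0.00391, edgeR). The number of genes called over the whole table was 1, against 21 in DESeq2, 93 with no composition factor, 140 with no filter, 7 without MERKO 1 and control 1 together and 0 to 11 with single libraries left out. The list calls, 0 in each list with all libraries, were as follows. With no composition factor there were 9 adipocyte, 10 tendon, 1 slow-fibre, 1 fast-fibre, 1 liver and blood and 1 PGC-1α responsive gene. With no filter there were 8 adipocyte, 11 tendon, 1 liver and blood, 1 PGC-1α responsive and 2 FoxO and glucocorticoid genes. DESeq2 called 1 tendon and 1 FoxO and glucocorticoid gene, and 1 adipocyte gene was called without MERKO 1 and control 1 together. Leaving out single libraries gave 0 to 1 adipocyte, 0 to 2 tendon and 0 to 1 liver and blood genes. The causes of these shifts were not tested.

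With replicate number as a block, 51 genes were called over the table, among them 3 adipocyte, 2 tendon, 1 slow-fibre and 2 FoxO and glucocorticoid genes and 0 of the 10 genes, whose lowest adjusted p was 0.377 for Ppargc1b. The deviations of same-numbered libraries correlated across genes at 0.448 for number 1, 0.163 for number 2 and 0.0612 for number 3, and MERKO 2 and MERKO 3 correlated best with other numbers, so the numbers are not taken as pairs.

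With 3 libraries per group, intervals of Ppara, Perm1, Pdk4 and Ppargc1b include a doubling, and genes such as Ppard (63 to 226 counts) and Pprc1 (56 to 323 counts) rest on few reads. RPKM also depends on the transcript length used.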
